A study of Homo sapiens with 32 samples.

Results

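The guanylate-binding proteins described here are the products of GBP1, GBP2, GBP3, GBP4 and GBP5. The members were found by gene symbol in the deposited tables, which list 60107 human genes, and each of the 5 symbols matched 1 row. All 5 were among the 12406 genes whose mean deposited count was at least 10, the filter on low counts, so every member entered the tests.

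RNA came from THP-1, a human monocytic line derived from a myeloid leukaemia, in which the gene for ATP citrate lyase (ACLY) had been knocked out. ACLY splits citrate in the cytosol to make acetyl-CoA, the donor for lipid synthesis and histone acetylation. All 4 lines share the ACLY knockout: KO cells without re-expressed ACLY, and knockout cells that stably re-expressed wild-type ACLY (WT), the catalytically inactive H760A mutant (HA) or the S455A mutant (SA), which lacks the serine that is phosphorylated. WT therefore names knockout cells with normal ACLY put back, not the parental line. The coding sequences were brought in by lentivirus from a vector with an EF1 promoter under puromycin selection, and the sources used here do not say whether the KO cells carried an empty vector. Each line was left untreated or was given bacterial lipopolysaccharide (LPS) at 100 ng/ml for 3 h per the labels, and a general methods paragraph gives a lower dose. Each of the 8 groups had 4 libraries, 32 in all. There was 1 line per ACLY form, so differences between lines cannot be told apart from differences between the particular transduced populations, and p-values measure only the spread between these libraries, which may be technical.

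Guanylate-binding proteins are large GTPases made in quantity when interferons act on cells, in large part through transcription factors of the STAT and IRF families. They assemble on the surface of bacteria and on the membranes around engulfed pathogens. GBP1 binds LPS and starts the coat, other members join it, and the coat recruits the LPS-sensing protease caspase-4, which leads to pyroptosis. In monocytes LPS itself raises these genes, mainly by way of interferon beta released by the cells. GBP1, GBP2 and GBP5 end in a motif to which a lipid (prenyl) anchor is attached, and GBP3 and GBP4 do not.

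The 5 genes lie beside one another on chromosome 1 and are read from the minus strand. In GRCh38 with GENCODE 44, GBP3 spans chr1:89006679-89022894, GBP1 chr1:89051882-89065360, GBP2 chr1:89106132-89150456, GBP4 chr1:89181144-89198942 and GBP5 chr1:89256189-89272860. GBP7 lies between GBP2 and GBP4 on the same strand and overlaps the annotated span of GBP2, and GBP6 and the pseudogene GBP1P1 follow on the plus strand. The promoters of 3 of the 5 members, GBP1, GBP3 and GBP4, were in the RefSeq table of promoters on GRCh38.p14. Each window runs from 250 bases before the annotated start to 50 bases after it. These windows were searched on both strands for the interferon-stimulated response element (ISRE, letters GAAANNGAAA) and for the gamma-activated site (GAS, letters TTCNNNGAA), the elements bound by interferon-activated STAT and IRF factors. All 3 windows held 1 ISRE match, as did 3.57% of the 35116 promoters in the table, and the GBP3 window also held 1 GAS match, as did 7.66%. The sequences below show the 30 bases around each ISRE match, lined up on it, because this element is what the 3 promoters share. Capitals mark the ISRE match and, in GBP3 only, the GAS match before it, and in all 3 the ISRE match is the reverse complement of the letters given above.
GBP1, chr1:89065324-89065353, minus strand: gtgatttgaacgaagtacTTTCAGTTTCat
GBP3, chr1:89022853-89022882, minus strand: cTTCCTTGAAagaagtacTTTCAGTTTCat
GBP4, chr1:89198935-89198964, minus strand: cccacaaagtgcatgtccTTTCAATTTCgg

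GBP1 and GBP3 were identical at 25 of these 30 bases, whereas GBP4 matched GBP1 at 14 and GBP3 at 15. Because the stretches were lined up on the ISRE match, its fixed letters are the same in every pair and count in these figures. The ISRE match lay from -127 to -118 before the RefSeq start of GBP1, still inside the longer GENCODE span of the gene, from 3 to 12 after that of GBP3, and from -4 to 6 across that of GBP4. A match is only a run of letters and was not shown here to be bound.

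Each library held between 6504099 and 14750815 reads counted on genes (median 10247620). Counts are given on 1 scale set over all 32 libraries (normalised read counts), and since each transcript gives about 1 fragment near its 3′ end they were not divided by length. ACLY, the targeted gene, was counted at 90.7 to 117 in the untreated WT libraries and 67.2 to 107 in the untreated KO libraries. After LPS it stood at 97.1 to 124 in WT and 60.3 to 99.9 in KO, so the 3′ counts do not tell the knockout from the re-expressing line, and reads from the construct and from the disrupted gene cannot be told apart. SA replicate 1 after LPS stood apart from the other 31 libraries, at a root mean square log2 distance of 1.89 from the rest of its group against 0.365 to 1.1, and it also held the highest ACLY count, 329. All 11 monocyte markers looked for were tested and their summed count was 10210 to 13630 in the untreated WT and SA libraries and 16730 to 33500 in the untreated KO and HA libraries. Lysozyme (LYZ) makes up most of this sum, with a mean count of 11560 beside 2913 for the next marker, CEBPA, and the median log2 difference of the 11 markers from WT was 0.26 in untreated KO and 0.08 in untreated HA (0.14 and 0.11 after LPS). LYZ was higher than in WT in KO and HA under both treatments, by 1.62 to 2.29, and CD14 in untreated KO. After LPS, CD33 was lower in KO (-0.73, adjusted p = 0.00474), and ITGAM (-1.41, adjusted p = 0.00264) and CD14 (-1.37, adjusted p = 0.00113) were lower in HA. The T-cell genes CD3E and CD3G were at 0 in all libraries, CD3D had 1 read in all, and 1 of 7 T and NK cell markers was tested, NKG7. Of 5 B-cell markers 2 were tested, and of these PAX5 was higher in KO than in WT. Of 8 erythroid, stromal, epithelial and endothelial markers 1 was tested, PECAM1, which monocytes express, and it was higher than in WT in untreated KO (0.88, adjusted p = 0.00312) and in HA untreated (0.94, adjusted p = 0.00232) and after LPS (0.83, adjusted p = 0.00801). The part of these shifts in the results below was not tested, and in bulk RNA more cells of a type and more RNA per cell cannot be told apart.

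Among untreated cells, GBP1, GBP2, GBP4 and GBP5 were all higher in KO than in WT, GBP1 about 18-fold and the other three between 2-fold and 3-fold. These 4 of 5 members passed the test, a limma fit of log2(normalised count + 1) over all 32 libraries at an adjusted p below 0.01, where 1.8% of all genes tested were called higher. In HA cells 2 members, GBP1 and GBP2, were higher than in WT, against 1.42% of all genes. In SA cells 0 members and 0% of all genes were called higher than in WT, although 445 genes had an unadjusted p below 0.05 and voom, another weighting of the same kind of fit, also called 0 genes. After LPS the counts were the same: 4 members were higher in KO than in WT (2.14% of all genes called higher), 2 in HA (1.16%) and 0 in SA (0%, with 646 genes at an unadjusted p below 0.05 and 0 called by voom). GBP3 passed none of these 6 comparisons. Counted without a test, every KO library exceeded every WT library at 4 of 5 members untreated, as at 5.9% of all genes, and at 4 of 5 after LPS (6.73%). For HA this held at 2 of 5 untreated (9%) and 4 of 5 after LPS (7.09%), and for SA at 0 of 5 untreated (2.37%) and 2 of 5 after LPS (1.27%), GBP1 and GBP5. The KO, HA and SA comparisons share the WT libraries.

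**Figure D1:**
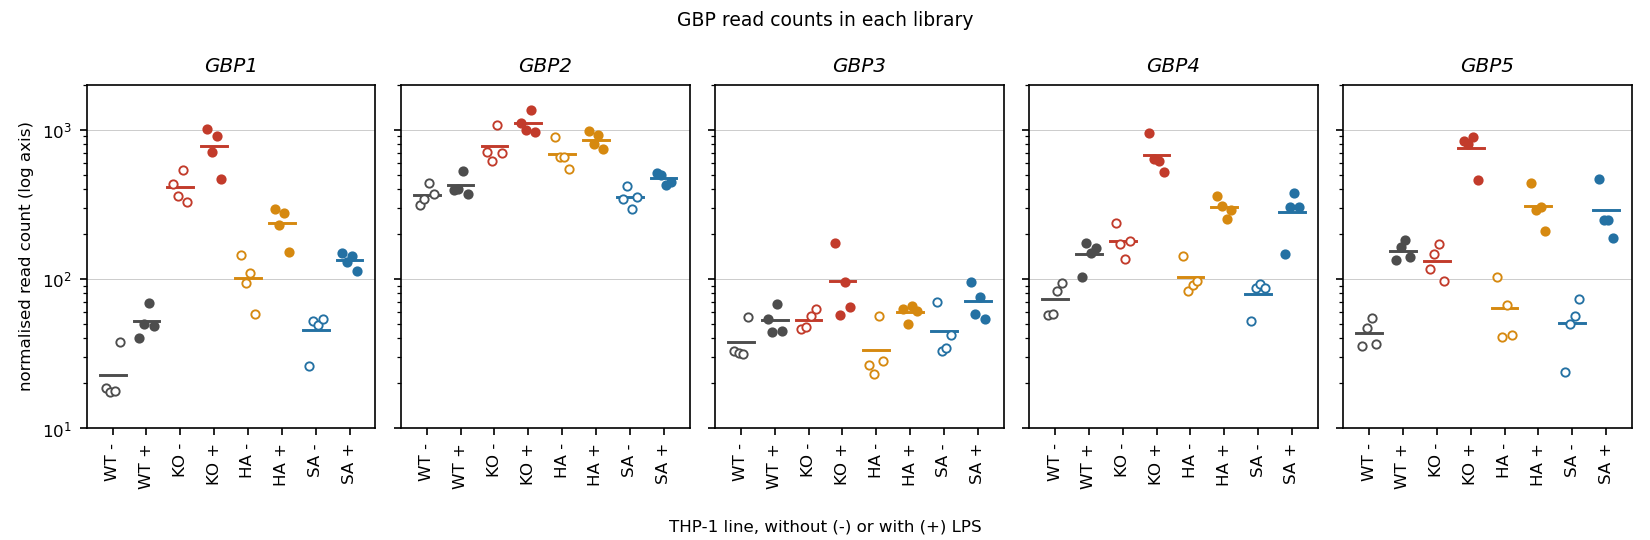
Normalised read count (log axis) of each GBP gene in every library, by line and without (-) or with (+) LPS, where points are libraries and bars are means of 4. GBP1 runs from 17.6 in WT untreated to 1012 in KO after LPS, GBP2 is high in every group, and GBP3 overlaps between the lines.

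GBP1, the member that starts the coat on LPS-bearing bacteria, was the lowest of the 5 in untreated WT cells, with normalised counts of 18.6, 17.6, 17.9 and 37.6. In untreated KO cells the counts were 432, 359, 534 and 328. All KO libraries lay far above all WT libraries, and the fitted difference was 4.16 ± 0.30 on the log2 scale (SE, adjusted p = 6.34e-11). Untreated HA cells gave 144, 93.4, 110 and 58.2, which lay between these groups without touching either. HA exceeded WT by 2.10 ± 0.30 (adjusted p = 3.21e-05) and KO exceeded HA by 2.06 ± 0.30 (adjusted p = 3.47e-04), so on the log2 scale HA stood about midway. Untreated SA cells gave 26.3, 52.7, 49.3 and 53.8, of which the lowest fell under the highest WT library, and the difference of 0.98 ± 0.30 did not pass (adjusted p = 0.998).

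After LPS, GBP1 stood at 40.4, 50.3, 69.2 and 48.3 in WT and at 1012, 709, 898 and 464 in KO. The ranges were far apart, with KO higher by 3.83 ± 0.30 (adjusted p = 5.65e-10). HA gave 296, 230, 276 and 151, and SA gave 149, 130, 143 and 114. Every HA library was above every SA library, though by little at the edge, and every SA library was above every WT library. HA exceeded WT by 2.15 ± 0.30 (adjusted p = 2.27e-05), whereas the SA difference of 1.37 ± 0.30 did not pass over all genes (adjusted p = 0.516, unadjusted p = 8.31e-05). GBP1 is 1 of the genes that the study itself listed as raised in SA cells after LPS from these same libraries, so the SA value is not independent evidence. The difference between KO and HA after LPS, 1.67 ± 0.30, missed the limit with an adjusted p of 0.0134 and passed it with a replicate block over all 8 groups (adjusted p = 0.00589). That block treats equal replicate numbers as pairs across the lines. The numbers did not pair the KO and HA libraries after LPS, whose deviations from the group mean gave r = -0.169 to 0.32.

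After LPS, GBP1 passed the test in SA alone, with a rise of 1.58 ± 0.30 (adjusted p = 0.00313). Without SA replicate 1 after LPS this was 1.53 ± 0.32 with an adjusted p of 0.0118, and without untreated SA replicate 1 it was 1.34 (adjusted p = 0.028). The call held in only 4 of the 8 fits that left out 1 library. It was also lost with voom (adjusted p = 0.012) and in a fit of the SA groups alone (adjusted p = 0.114). The other responses of GBP1 were 1.20 ± 0.30 in WT (adjusted p = 0.0875), 0.86 ± 0.30 in KO (adjusted p = 0.328) and 1.25 ± 0.30 in HA (adjusted p = 0.0406). Treated and untreated libraries did not overlap in WT, HA and SA, and they overlapped in KO. The response did not differ detectably between SA and WT, the difference being 0.39 ± 0.42 (adjusted p = 0.997). In order of the group means GBP1 ran from WT through SA, WT after LPS, HA, SA after LPS, HA after LPS and KO to KO after LPS, and no neighbouring pair in this order passed the test. The highest group mean, 771 in KO after LPS, was 33.6 times the lowest, 22.9 in untreated WT.

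GBP2, a prenylated member that joins the GBP1 coat, was by far the most counted member in untreated WT cells, at 311, 344, 440 and 371. KO cells gave 704, 612, 1069 and 698, and HA cells gave 886, 656, 653 and 545. Every KO and every HA library was above every WT library, and KO and HA overlapped. The differences from WT were 1.05 ± 0.17 for KO (adjusted p = 1.35e-04) and 0.89 ± 0.17 for HA (adjusted p = 0.00139), and KO and HA differed by 0.16 ± 0.17 (adjusted p = 0.702). Untreated SA cells gave 340, 421, 296 and 356, within the WT range at the median, with a difference from WT of -0.05 ± 0.17 (adjusted p = 0.998).

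After LPS, GBP2 stood at 392, 400, 530 and 370 in WT, at 1108, 997, 1357 and 955 in KO and at 972, 797, 916 and 739 in HA. SA gave 515, 494, 427 and 445. KO and HA were again clear of WT, by 1.38 ± 0.17 (adjusted p = 2.05e-06) and 1.02 ± 0.17 (adjusted p = 3.19e-04), and SA overlapped WT, with a difference of 0.16 ± 0.17 (adjusted p = 0.868). GBP2 was the 1 member that separated HA from SA by the test, by 0.94 ± 0.17 untreated (adjusted p = 0.00103) and 0.86 ± 0.17 after LPS (adjusted p = 0.00233). The LPS responses of GBP2 were the lowest of the 5 members, between 0.20 in WT and 0.54 in KO (each ± 0.17), and 0 of the 4 passed. Its highest group mean, 1104 in KO after LPS, was 3.12 times its lowest, 353 in untreated SA.

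GBP5, another prenylated member that has been tied to assembly of the NLRP3 inflammasome, was counted at 35.8, 46.9, 54.9 and 36.8 in untreated WT cells and at 117, 147, 170 and 96.6 in untreated KO cells. KO lay above WT without overlap, by 1.57 ± 0.33 (adjusted p = 0.00221), but with voom the call was lost (adjusted p = 0.0278). Untreated HA gave 104, 40.7, 67.2 and 42.3 and untreated SA gave 23.8, 50.0, 56.7 and 73.6. Both overlapped WT, with differences of 0.45 ± 0.33 (adjusted p = 0.39) and 0.14 ± 0.33 (adjusted p = 0.998).

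LPS raised GBP5 in all 4 lines, and in each line its fitted response was the largest of the 5 members. The counts after LPS were 133, 163, 182 and 141 for WT and 842, 798, 897 and 459 for KO. HA gave 439, 289, 302 and 208, and SA gave 468, 249, 247 and 187. In every line all treated libraries exceeded all untreated ones. The fitted log2 responses were 1.82 ± 0.33 for WT (adjusted p = 0.00307), 2.47 ± 0.33 for KO (adjusted p = 1.68e-05), 2.32 ± 0.33 for HA (adjusted p = 6.41e-05) and 2.49 ± 0.33 for SA (adjusted p = 1.60e-05). The WT response missed the limit in 6 of the 8 fits that left out 1 library and with voom (adjusted p = 0.0529), and with a replicate block in a fit of the WT groups alone its adjusted p was 3.77e-07. After LPS, KO exceeded WT by 2.23 ± 0.33 (adjusted p = 2.52e-05), and the HA and SA libraries also lay above the WT libraries without overlap, by 0.96 ± 0.33 (adjusted p = 0.106) and 0.81 ± 0.33 (adjusted p = 0.825). Without SA replicate 1 after LPS, the highest GBP5 library of that group, the SA difference was 0.55 ± 0.33 (adjusted p = 1).

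GBP4, a member without a prenylation motif, followed a similar course. Untreated, it stood at 57.3, 58.6, 82.9 and 94.5 in WT and at 237, 170, 135 and 179 in KO. KO was clear of WT, by 1.29 ± 0.26 (adjusted p = 0.00187), and with voom the adjusted p was 0.0109. HA gave 142, 83.0, 90.8 and 97.0, and SA gave 52.5, 87.5, 92.1 and 86.8. Both overlapped WT, with differences of 0.49 ± 0.26 (adjusted p = 0.245) and 0.12 ± 0.26 (adjusted p = 0.998).

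After LPS, GBP4 was counted at 103, 175, 149 and 160 in WT, 944, 638, 613 and 519 in KO, 361, 308, 253 and 291 in HA, and 146, 305, 375 and 302 in SA. KO lay above every other line, and SA replicate 1, the library that stood apart, was the lowest of its group by a wide gap. KO exceeded WT by 2.19 ± 0.26 (adjusted p = 1.19e-06). HA exceeded WT by 1.06 ± 0.26 without overlap, which missed the limit (adjusted p = 0.0177) and passed it on the deposited scale, where each line had been scaled on its own (1.21, adjusted p = 0.00435). The SA difference was 0.88 ± 0.26 (adjusted p = 0.825), or 1.17 ± 0.24 without SA replicate 1 after LPS (adjusted p = 0.326). GBP4 rose after LPS in KO by 1.90 ± 0.26 (adjusted p = 3.53e-05), in HA by 1.56 ± 0.26 (adjusted p = 7.31e-04) and in SA by 1.76 ± 0.26 (adjusted p = 1.36e-04). In WT the response was 1.00 ± 0.26, without overlap, with an adjusted p of 0.149 in the fit of all groups and 0.00139 with a replicate block in the WT groups alone, where the numbers pair the libraries.

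GBP3, the other member without a prenylation motif, showed no difference that passed in any of the 19 comparisons. Untreated counts ran from 31.4 to 56.0 among WT libraries, from 46.2 to 63.5 among KO, from 23.2 to 56.6 among HA and from 33.0 to 70.1 among SA. After LPS the WT libraries ran from 44.2 to 68.0, KO from 57.1 to 173, HA from 50.1 to 66.4 and SA from 53.9 to 96.1. All of these ranges overlapped that of WT under the same treatment. The differences of KO from WT were 0.51 ± 0.31 untreated (adjusted p = 0.526) and 0.76 ± 0.31 after LPS (adjusted p = 0.183), and the LPS responses lay between 0.49 in WT and 0.90 in HA. Beside the likeness of their ISRE stretches shown above, the untreated KO and WT libraries thus gave a log2 difference of 4.16 for GBP1 and 0.51 for GBP3.

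**Figure D2:**
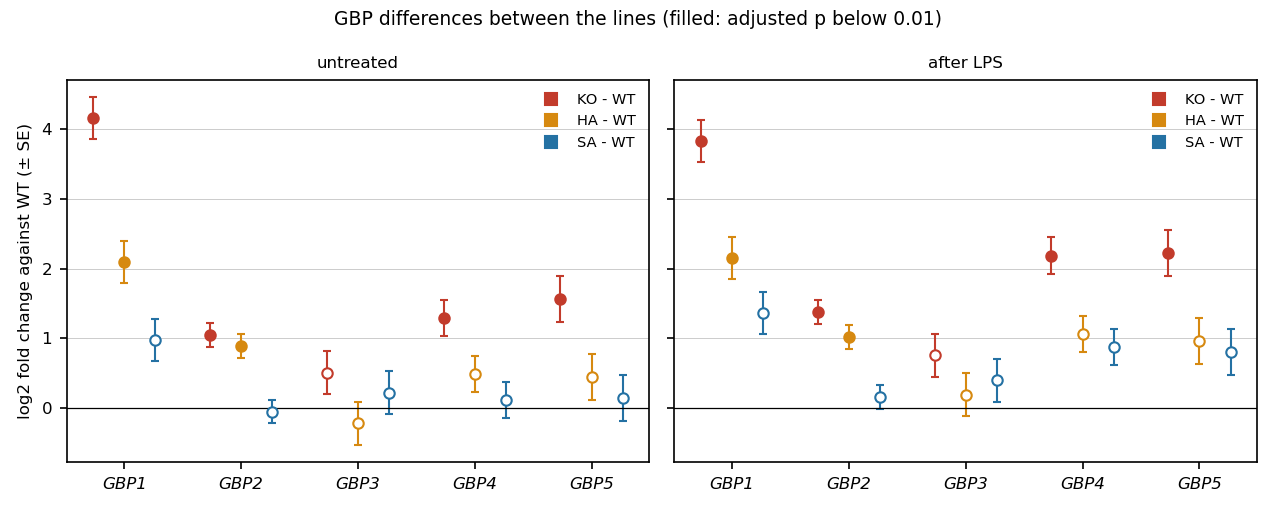
Fitted log2 fold change of KO, HA and SA against WT for each GBP gene, untreated (left) and after LPS (right), with bars of 1 SE and filled points at an adjusted p below 0.01. KO is highest for every gene under both treatments, HA is filled for GBP1 and GBP2, and no SA point is filled.

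The lines were also compared with each other. KO and HA untreated differed at 1 of 5 members, GBP1, against 0.202% of all genes called higher, and after LPS at 0 of 5, against 0.00806%, which is 1 gene (1308 had an unadjusted p below 0.05, and with voom 1 member passed, GBP1). KO exceeded SA at 4 of 5 members untreated (1.61% of all genes) and after LPS (1.77%), the same 4 genes that separated KO from WT. The KO and SA differences were 3.18 untreated and 2.46 after LPS for GBP1 (each ± 0.30), 1.10 and 1.22 for GBP2 (each ± 0.17), 1.17 and 1.31 for GBP4 (each ± 0.26), and 1.44 and 1.42 for GBP5 (each ± 0.33). The GBP4 and GBP5 differences lost their calls on the deposited scale under both treatments, and after LPS the GBP5 libraries of KO and SA overlapped. Of the 8 fits that left out 1 library, GBP4 passed in 2 untreated and 7 after LPS, and GBP5 in 3 and 2. GBP1 and GBP2 passed in all 8 under both treatments. With no filter on low counts, GBP4 untreated (adjusted p = 0.0105) and GBP5 untreated (0.0116) and after LPS (0.0126) also missed the limit. HA and SA differed at 1 of 5 members, GBP2, untreated (0.725% of all genes higher) and after LPS (1.06%). For GBP1, HA exceeded SA in every library untreated, by 1.12 ± 0.30 (adjusted p = 0.0297), and after LPS, by 0.79 ± 0.30 (adjusted p = 0.123).

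**Figure D3:**
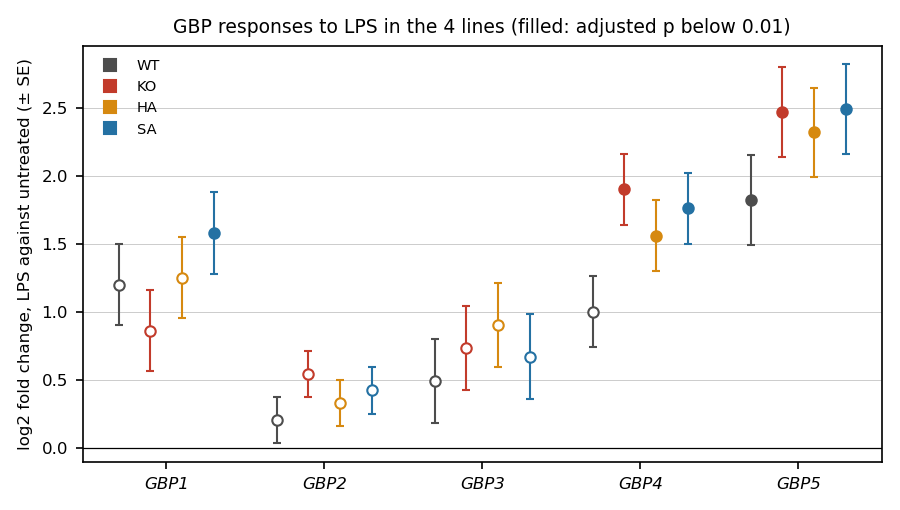
Fitted log2 fold change of LPS against untreated for each GBP gene in the 4 lines, with bars of 1 SE and filled points at an adjusted p below 0.01. GBP5 is highest and filled in all lines, GBP4 is filled in KO, HA and SA, and GBP2 lies between 0.20 and 0.54.

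LPS raised 1 of 5 members in WT, GBP5, where 0.25% of all genes passed. It raised 2 of 5 in KO (0.508% of all genes) and 2 of 5 in HA (0.387%), GBP4 and GBP5 in both, and 3 of 5 in SA (0.468%), where GBP1 was added. These counts come from the fit that leaves the pairing of the WT and KO libraries unused. With a replicate block in the WT groups alone 2 members passed, GBP4 and GBP5, and 117 of all genes were called higher, against 31 without it. The counts therefore do not rank the lines by response. Every treated library exceeded every untreated one at 3 of 5 members in WT (as at 1.77% of all genes), 2 in KO (1.95%), 3 in HA (1.99%) and 4 in SA (2.11%). None of the 15 differences between a line's response and that of WT passed for the members, where 0.00806%, 0% and 0% of all genes passed for KO, HA and SA. The count of genes with an unadjusted p below 0.05 was 175, 142 and 457. The difference nearest to passing was that of GBP4 in KO, 0.90 ± 0.37 (unadjusted p = 0.0225, adjusted p = 1). Differences between the responses of KO, HA and SA were not tested against each other. KO exceeded WT before and after LPS, by 4.16 and 3.83 for GBP1 and by 1.05 and 1.38 for GBP2. The differences were 1.29 and 2.19 for GBP4 and 1.57 and 2.23 for GBP5, and equal responses were not shown.

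The make-up of the counts over the 5 members differed between groups. In untreated WT cells GBP2 held 67.4% ± 3.5 of the summed count and GBP1 4.2% ± 1.5 (SD, n = 4). In untreated KO cells GBP2 held 49.3% ± 4.2 and GBP1 26.5% ± 1.8. In the WT, HA and SA lines GBP1 stayed between 2.86% and 15.2% in all libraries, and in KO it was 18.8% or more. GBP5 held 4.54% to 12.0% of the sum in untreated libraries and 14.4% to 34.0% after LPS. The ratio of the GBP1 count to the GBP2 count was 0.0633 ± 0.0266 in untreated WT, 0.13 ± 0.0392 in SA, 0.145 ± 0.0278 in HA and 0.542 ± 0.069 in KO (SD, n = 4). After LPS it was 0.123 ± 0.0132 in WT, 0.286 ± 0.0356 in SA, 0.275 ± 0.0475 in HA and 0.693 ± 0.176 in KO. Under both treatments the KO ratios exceeded all others, and those of HA and SA overlapped. Counted together, the 5 genes summed to 455 to 627 in untreated WT libraries and 2462 to 4079 in KO libraries after LPS.

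**Figure D4:**
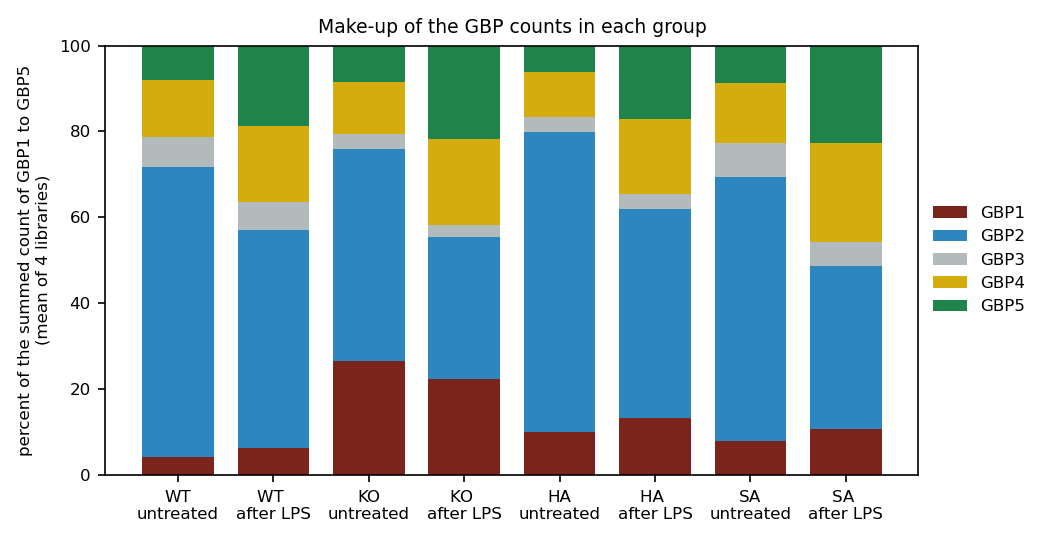
Share of each gene in the summed normalised count of GBP1 to GBP5, as the mean of 4 libraries per group, in percent. The GBP1 share is 26.5% in untreated KO against 4.2% in untreated WT, and the shares of GBP4 and GBP5 are larger after LPS in every line.

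Of 6 other interferon-induced GTPases looked for, 3 were tested, MX1, MX2 and GBP7. MX1 and MX2, dynamin-like antiviral GTPases, were higher in KO than in WT by 2.83 and 2.30 on the log2 scale untreated (adjusted p = 5.89e-08 and 1.83e-08), and in HA by 2.21 and 1.20. After LPS the differences were 1.92 and 1.93 in KO and 1.46 and 0.99 in HA, and all 8 passed. LPS changed neither gene by the test in any line. GBP7 was counted at 0 to 16.5 in WT and up to 123 in KO after LPS, and passed no comparison with WT, with a difference of 1.85 ± 0.99 in KO after LPS (adjusted p = 0.36). GBP6 had 1 read over all libraries, and IRGM and GVINP1 were under the filter. The pseudogene GBP1P1 stood at 36.8 to 120 in KO after LPS against 7.48 to 12.7 in WT, a difference of 2.83 ± 0.74 that missed the limit (adjusted p = 0.0165). The 9 atlastins, dynamins and related membrane GTPases tested passed 0 of the comparisons of KO, HA and SA with WT.

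Among the factors that carry interferon signals to the GBP genes, 6 of 13 were higher in KO than in WT untreated and 5 of 13 after LPS, with medians over the list of 0.84 and 1.12 beside -0.03 and -0.01 over all genes. In HA 2 of 13 were higher untreated and 3 of 13 after LPS. STAT2, part of the factor that binds the ISRE, was higher in untreated KO by 1.64 and in untreated HA by 1.45 (adjusted p = 2.38e-04 and 0.00138). JAK2, a kinase of the interferon gamma receptor, was higher in KO by 0.85 untreated and 1.12 after LPS, and BATF2 by 2.77 and 1.98. IRF7 was higher in KO untreated by 1.93 (adjusted p = 0.0033), and IRF2 after LPS in KO by 1.28 and in HA by 0.80. IRF8 and IRF9 passed none of these comparisons, and neither did JAK1, TYK2, STAT3 and IRF3.

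IRF1, the factor through which interferon gamma drives GBP genes, was counted at 460 to 592 in untreated WT and 907 to 1117 in WT after LPS. It was the 1 of the 13 factors that LPS raised in WT, by 0.97 (adjusted p = 0.00307), and it also rose in KO by 1.88, in HA by 1.43 and in SA by 1.41. Untreated, it exceeded WT by 0.84 in KO (adjusted p = 0.00213), and the difference of 0.70 in HA missed the limit (adjusted p = 0.013). After LPS it exceeded WT by 1.75 in KO (adjusted p = 5.18e-08) and by 1.16 in HA (adjusted p = 7.41e-05). Of the interferons, IFNG was at 0 in all 32 libraries and IFNB1 was at 0 in 24 of them and under the filter, so it was not tested. The IFNB1 counts after LPS in KO were 54.6, 83.2, 0 and 3.92, so 2 of these libraries were high, and no library of another group exceeded 2.21. IFNL1, a lambda interferon, was tested. It was at 0 in all untreated WT libraries and at 5.41 to 25.4 in untreated KO, and after LPS at 0 to 5.2 in WT and 38.3 to 136 in KO. It passed in KO under both treatments (adjusted p = 4.75e-04 untreated and 6.18e-05 after LPS). The 4 tested receptor genes of the same list, IFNAR1, IFNAR2, IFNGR1 and IFNGR2, passed no comparison with WT. USP18, which restrains the type I receptor, was the 1 of 8 restraints that passed, higher in untreated KO by 2.79 (adjusted p = 0.00269).

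Of the proteins that act with GBP coats in inflammasomes, 1 of 11 tested was higher in untreated KO, AIM2, and 2 of 11 after LPS, AIM2 and IL1B. AIM2, a DNA sensor, stood at 1.67 to 16.6 in untreated WT, 151 to 222 in KO and 36.6 to 82.4 in HA, and KO and HA were clear of WT (log2 differences 4.50 and 2.54). CASP4, the LPS sensor that GBP coats recruit, differed from WT by -0.06 in KO and -0.30 in HA untreated and by 0.17 and -0.06 after LPS, and CASP1, GSDMD, PYCARD and NLRP3 also passed none of these tests. Of 10 partners at pathogen membranes, 3 were higher in untreated KO, UBE2L6, RNF213 and APOL6, and 2 after LPS, UBE2L6 and APOL6. APOL6 was also the 1 partner that LPS raised in WT, by 0.77 (adjusted p = 0.00307). Of 8 genes for prenylation, on which GBP1, GBP2 and GBP5 depend for their anchors, ICMT, the methyltransferase that finishes the anchor, was lower in untreated HA by 0.97 on the log2 scale (adjusted p = 0.00824), and the others passed no comparison with WT. Among 10 tested genes for LPS sensing and the early response, 2 were higher in untreated KO, CD14 and TNF, and 2 after LPS, TNF and IL1B. In HA after LPS 1 was higher, TNF (0.79, adjusted p = 0.00154), and 1 was lower, CD14. CD14, which hands LPS to its receptor, was higher in untreated KO by 1.66, lower in HA after LPS (-1.37), and fell after LPS in KO, HA and SA.

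Genes next to the cluster gave a local comparison. Within 500 kb on either side, 9 other genes were tested, and 1 of them passed in the 4 comparisons of KO and HA with WT. It was KYAT3, an aminotransferase gene, which was higher in KO after LPS by 0.81 ± 0.19 (adjusted p = 0.00678). The other genes passed none, including RBMXL1 (0.52 ± 0.20 in KO after LPS) and LRRC8B (-0.20 ± 0.19), the nearest tested genes on either side of the cluster. RBMXL1 (chr1:88979456-88992960) overlaps KYAT3 (chr1:88935773-88992953) on the same strand, so KYAT3 lies about as near to the cluster. LPS changed 0 of the 9 in WT and 0 in KO, with differences of -0.39 to 0.31 in WT and -0.24 to 0.83 in KO. In WT 200 genes and in KO 673 genes of all tested had an unadjusted p below 0.05.

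**Figure D5:**
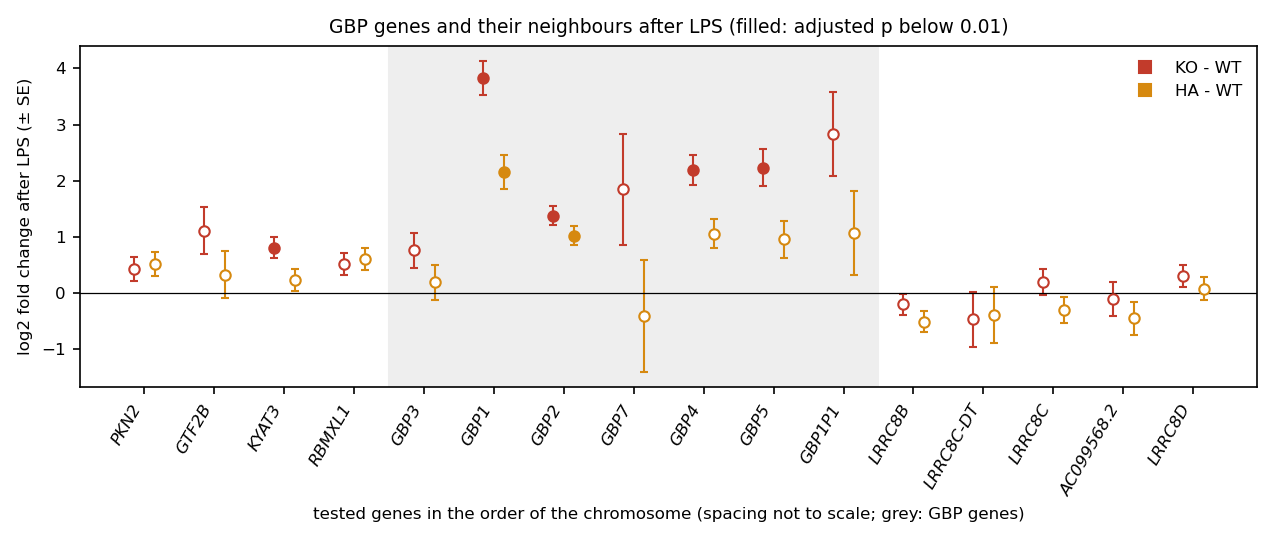
Fitted log2 fold change after LPS of KO and HA against WT for the tested genes of the region in chromosome order (spacing not to scale, GBP genes shaded), with bars of 1 SE and filled points at an adjusted p below 0.01. In KO the GBP genes from GBP1 to GBP1P1 lie between 1.38 and 3.83, GBP3 at 0.76, and the genes outside the shading between -0.47 and 1.11. In HA the GBP genes lie between -0.41 (GBP7) and 2.15 (GBP1), and the genes outside the shading between -0.51 and 0.61.

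The genes whose pattern was most like that of each member were found by Pearson's r of log2(normalised count + 1) over the 8 group means, which share their libraries and scale. GBP1 was nearest to MX2 (r = 0.998), SAMD9L (0.996) and HERC5 (0.993), and over the 32 single libraries among others to PARP14 (0.957) and IFI16 (0.954). GBP5 was nearest to APOL6 (0.993), CXCL11 (0.991) and CXCL10 (0.989), and over libraries to IFIT2 (0.974), APOL6 and CCL3L1. GBP4 was nearest to TRAF1 (0.984), RTP4 (0.98) and PLAGL2 (0.979) over group means and to CXCL11 (0.938), IFIT3 and SAMD9 over libraries. GBP2 was nearest, among others, to MOB1B (0.994) and CD38 (0.992) over group means, and over libraries to PLEK (0.939), PDGFA (0.936) and RGL1 (0.929). GBP3 reached at most 0.751 over libraries, with SLFN5, followed by CXCL11 and DDX58, and over group means was nearest to STX11 (0.97), ATF3 and TET3.

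Among the members themselves, GBP4 and GBP5 were the most alike over the 8 group means (r = 0.988), followed by GBP3 and GBP5 (0.939), GBP3 and GBP4 (0.92) and GBP1 and GBP2 (0.918). The least alike were GBP2 and GBP3 (0.518). Within groups, where each library is set against the mean of its group of 4, the deviations of GBP1 went most with those of GBP5 (r = 0.689) and GBP2 (0.61) over the 32 libraries. Those of GBP4 and GBP5 gave 0.178 and those of GBP3 and GBP4 -0.094. In SA replicate 1 after LPS, the library that stood apart, GBP4 was the lowest of its group (146). GBP3 (96.1) and GBP5 (468) were the highest of that group in the same library, and r without it was not computed. Cross-mapping between the members was looked at only through exact matches of 75 bases. Shorter trimmed reads, mismatches and other transcript ends were not covered. Of the 426 different 75-base reads that the last 500 bases of each main transcript allow, 0 occurred in another gene for GBP1, GBP2, GBP3 and GBP5. For GBP4 33 (7.75%) also occurred in other genes. Those that shared the most were CASP10, GLIPR1-AS1 and LINC01356, which are not guanylate-binding proteins, and any further genes were not listed.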

How the data were processed

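Libraries were made with the Lexogen QuantSeq 3′ FWD kit and sequenced as 75-base single reads. Per the study's methods, the authors used Bbduk to trim the reads, STAR for alignment to GRCh38, HTSeq-count for gene counts and DESeq2 to normalise these counts (versions, annotation release and strand setting not given in the sources used here). The submitters' processing notes name bcl2fastq and DESeq2. The deposited values are normalised read counts, in 8 tables of 4 libraries, scaled line by line, with decimal commas. They were whole multiples of 1 step per library, so reads were recovered (100% of values whole within 0.05), and put on 1 median-of-ratios scale over the 32 libraries. Rows of 92 spike-ins were left out, and genes with a mean deposited count of at least 10 were kept.

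Values of log2(normalised count + 1) were fitted with limma 3.58.1 (trend, R 4.3.3) as 8 group means, with Benjamini-Hochberg adjustment over 12406 genes and a limit of 0.01, for 19 comparisons. The fit was tested on simulated data. Alternatives were the deposited scale, TMM factors, a pseudocount of 5, no filter, only the groups compared, the replicate block, voom and leaving out each library. The replicate numbers paired the WT, WT after LPS, KO and KO after LPS libraries, since same-numbered libraries deviated together in each pair of these groups (r = 0.124 to 0.723), and did not pair those of HA or SA.

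Named genes were the 5 members, ACLY, the listed genes that passed in KO or HA against WT or in the LPS response of WT, all listed GTPases and JAK, STAT and IRF factors, genes within 500 kb of the cluster, and the 3 genes most like each member. Some listed genes that did not pass were named beside them after their values were seen. The members and lists were chosen with earlier results of these data known. Antisense genes overlap GBP2 and GBP5, and without a stated strand setting their reads cannot be told apart. A few genes that this rule names are not reported here.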

Additional observations from a re-analysis of the deposited data

Results flagged for a closer look

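In 5 of the 40 groups of 4 library values (5 members in 8 groups), 1 library stood off from the other three by more than Dixon's critical share of the range of its group. Chance gives this in about 1 group in 20. In untreated WT, replicate 4 was the highest for GBP1 (37.6) and for GBP3 (56.0). In untreated SA, replicate 1 was the lowest for GBP1 (26.3) and for GBP4 (52.5). In untreated HA, replicate 3 was the highest for GBP3 (56.6). All 5 were in untreated groups, and none was in the library that stood apart over all genes, SA replicate 1 after LPS. Leaving out untreated WT replicate 4 put GBP5 in KO against WT at an adjusted p of 0.0112, and leaving out untreated SA replicate 1 put GBP1 in the LPS response of SA at an adjusted p of 0.028. None of the differences between the LPS response of KO, HA or SA and that of WT passed for any member, and the other pairs of lines were not tested.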

How the results depend on the processing

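Over the settings that kept all libraries, 707 of the values per member and comparison kept their direction and side of the limit, 44 lost the call, 5 gained it and 4 changed sign, all 4 on the deposited scale and among differences that had not passed. These were GBP2 in SA against WT untreated (0.21), GBP2 in KO against HA untreated (-0.08) and GBP3 in KO against SA untreated (-0.05) and after LPS (-0.01). The deposited scale shifts a typical gene against WT by -0.126 and -0.105 in KO, 0.123 and 0.127 in HA and 0.245 and 0.25 in SA (untreated and after LPS), and over all genes it called 406 higher and 97 lower in HA against WT untreated, where the shared scale called 176 and 137. For KO against WT it called 185 higher and 184 lower untreated and 222 and 253 after LPS, where the shared scale called 223 and 137, and 265 and 165. For HA after LPS it called 280 and 72 in place of 144 and 106. Counts of members called moved as follows. With only the groups compared in the fit, which leaves fewer libraries to estimate the spread, KO against WT untreated fell from 4 members to 2, HA against WT untreated to 1, KO against HA untreated to 0, KO against SA to 1 untreated and 1 after LPS, HA against SA to 0 and 0, and LPS in SA to 0. With voom, chosen after seeing the data, KO against WT untreated had 2, KO against HA after LPS 1 and LPS in WT 0. The deposited scale gave 2 in KO against SA under both treatments, and no filter gave 2 there untreated. TMM factors and a pseudocount of 5 changed no call of a member. edgeR and DESeq2, both planned, were not run on the normalised values, and TMM factors were computed without edgeR.

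The replicate block over all 8 groups added GBP1 in KO against HA after LPS (1 member), although the numbers did not pair the HA libraries. In fits of only the groups compared, the block gave 2 members in LPS in WT, and over all genes 724 calls in KO against WT untreated, 1336 after LPS and 126 in LPS in WT, against 360, 430 and 31 without it. For lines whose libraries share only a number it gave 0 in HA against WT under both treatments, 0 in KO against HA untreated, 0 in KO against SA under both treatments, 0 in HA against SA after LPS and 0 in LPS in SA, and over all genes 8 and 7 calls in HA against WT. It changed no other count of members by more than 1.5 times. Only the groups compared without a block gave 179 calls over all genes in KO against WT untreated, 196 in HA, 133 in HA after LPS and 14 in LPS in WT.

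Leaving out 1 library at a time gave 2 to 4 members in KO against WT untreated (2 without WT replicate 1), 4 in all fits after LPS, 1 to 2 in HA against WT untreated (1 without HA replicate 1) and 2 in all after LPS, 2 to 4 in KO against SA under both treatments, 0 to 1 in KO against HA after LPS, 1 to 2 in HA against SA untreated and 0 to 1 after LPS, 0 to 1 in LPS in WT and 2 to 3 in LPS in SA. Signs that turned were of differences that had not passed. In SA against WT untreated GBP2 ranged from -0.14 to 0.04, GBP3 from -0.02 to 0.41 and GBP5 from -0.07 to 0.46. GBP2 in KO against HA untreated ranged from -0.01 to 0.29. In HA against SA, GBP5 ranged from -0.01 to 0.52 untreated and -0.04 to 0.4 after LPS, and GBP4 from -0.11 to 0.34 after LPS. Among response differences from WT, GBP3 ranged from -0.08 to 0.45 in KO and -0.01 to 0.42 in SA, and GBP1 from -0.2 to 0.26 in HA. The cause of these changes was not tested. GBP1 and GBP5 in untreated WT and GBP3 in most libraries rest on few reads.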
